A study of Macaca mulatta with 5 samples.

Results

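The WNT genes described here are the secreted WNT ligands, their Frizzled (FZD) receptors and the proteins that act directly beside them at the cell surface, measured by RNA sequencing in neural cells of the rhesus macaque. They were picked by gene name, by a rule set with earlier results of these data known. The rule took rows of the deposited table by name. These names were any WNT, FZD, R-spondin (RSPO) or Dishevelled (DVL), and LRP5, LRP6, ROR1, ROR2, RYK, PORCN, WLS, GPC3 or GPC4. That rule found 28 of the 16970 genes in the table. These were 10 WNT ligands, 8 Frizzled receptors, 5 rows of co-receptors, 3 Dishevelled genes, PORCN and GPC4. LRP5 has 2 rows, 1 on chromosome 14 and 1 on an unplaced scaffold, so the 28 rows carry 27 names. Another 6 rows of the same families bear only a serial name in the table and are given apart: RYK, WLS, GPC3, WNT10B and WNT2, named through annotation tables, and a row described only as "Protein Wnt". Another 13 names of the rule, among them FZD7, WNT1, WNT5A and the R-spondins, are not analysed here under those names. Whether the "Protein Wnt" row is 1 of the WNT genes among them was not determined.

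WNT proteins are lipid-modified signals that act over short distances. PORCN, an enzyme of the endoplasmic reticulum, attaches the lipid, and WLS carries the modified ligand to the cell surface. There the ligand binds a Frizzled receptor together with LRP5 or LRP6, and Dishevelled passes the signal on, so that the GSK3 kinase no longer marks beta-catenin for destruction. ROR and RYK receptors take up WNT signals that do not run through beta-catenin, and glypicans hold ligands at the cell surface. In the embryonic nervous system WNT signals are known for patterning the neural tube, keeping progenitors dividing and guiding axons.

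The cells were neuroepithelial stem cells (NESC), early progenitors that line the neural tube, made from monkey embryonic stem cells and sampled at passages 5, 24 and 36, with 1 library each. They grew with 3 µM CHIR99021, an inhibitor of GSK3 that acts below the receptors described here, with 5 µM SB431542, an inhibitor of TGF-beta receptors, with bFGF at 10 ng/ml and with human LIF at 1000 U/ml. RPGC, the labels' short form for radial glial progenitor cells, came from passage 36 after 7 days in that medium lacking CHIR99021. The neurons also came from passage 36, after 13 days on laminin (5 µg/ml) and gelatin (0.05%) in a medium with none of these 4 agents. By the labels' score, single cells re-formed neural tubes strongly at passages 24 and 36, moderately at passage 5, weakly as RPGC and not at all as neurons. RPGC and neurons have 1 library each, so p-values for them take their error only from the spread among the NESC passages. For passage 5 against the later passages, that spread comes from passages 24 and 36 alone. Medium, time and library cannot be told apart. Nothing in the labels says that the passages came from separate lines.

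Levels are given as FPKM, which scales reads by transcript length and library size. Comparison between genes, and shares of a sum, therefore depend on the length assigned to each gene. At passage 5, for example, DVL1 had 48.5 FPKM from 73 reads and DVL2 56.3 FPKM from 623. The libraries held between 5403437 and 7899991 reads in genes. Of the 28 rows, 21 had both 1 FPKM and 20 reads in at least 1 library and were tested. WNT4 met that filter only through the neurons. The other 7 rows had at most 18 reads and 4.98 FPKM in any library. Some zeros in the table stand beside high values, since 32 genes had 0 reads in 1 library although another library gave them 300 or more. A gene without reads is therefore said to be listed at 0 and is given no fold change against that value.

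Markers of the labelled cell types were checked first. The 11 neuron markers summed to 598, 419 and 391 FPKM in NESC at passages 5, 24 and 36, to 921 in RPGC and to 5187 in neurons. The 10 radial glia markers summed to 3386, 3720 and 2744 FPKM in NESC, 4684 in RPGC and 2093 in neurons, but 2 of them, GFAP and HOPX, had under 20 reads in every library. VIM and FABP7 supplied most of each sum. By gene, 5 of the 8 tested radial glia markers were higher in neurons than in NESC and 3 lower, with a median log2 fold change of 0.32. The 9 neuroepithelial markers in the table summed to 1199, 1836 and 1596 FPKM in NESC, 1742 in RPGC and 615 in neurons. In neurons CDH2 supplied 208 FPKM of that sum, NES 114 and SOX2 105, while LIN28A had 6 reads. By log2 fold change against NESC, 8 of the 9 were lower in neurons and 1, DACH1, was higher. The neuron library thus also held transcripts of progenitor markers. Whether these came from remaining progenitors was not tested, and in bulk libraries fewer cells of a type and less RNA per cell cannot be told apart. The 8 mesenchyme and meninges markers in the table summed to 67.0 FPKM at passage 5, against 21.6 and 10.7 at passages 24 and 36, 15.3 in RPGC and 16.0 in neurons. COL3A1 supplied 33.7 FPKM of the passage 5 sum and LUM 20.3. By log2 fold change against the later passages, 5 of the 7 tested were higher at passage 5 and 2 lower. The 8 neural crest markers, 6 of which had under 20 reads everywhere, ranged from 14.1 to 51.2 FPKM in NESC and reached 79.4 in RPGC and 106 in neurons. Markers of endothelium (6 of 6 rows), of the oligodendrocyte lineage (4 of 4 rows found) and of pluripotent cells (2 of 2 rows found) stayed under 20 reads in every library. The part that other cells had in the results below was not tested.

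WNT7A and WNT7B, a pair of closely related ligands of the developing forebrain and spinal cord, supplied most of the transcript of the 10 named ligands. WNT7A (ENSMMUG00000018445, chromosome 2, 47161627 to 47216628) stood at 25.2, 29.0 and 20.8 FPKM in NESC, 61.6 in RPGC and 27.5 in neurons. The RPGC library was the high one, at least 2-fold above every NESC library, while neurons lay within the NESC range. The log2 fold change of RPGC over NESC, on log2(FPKM + 1) as for all fold changes here, was 1.28 ± 0.26 (SE) by limma and did not pass (adjusted p = 0.292). Against its parent passage 36, the RPGC ratio of normalized counts was 2.99, with an exact 95% interval of 2.40 to 3.74 that covers counting error only. From RPGC to neurons the difference was -1.13 ± 0.31 (limma, adjusted p = 0.0759).

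**Figure D1:**
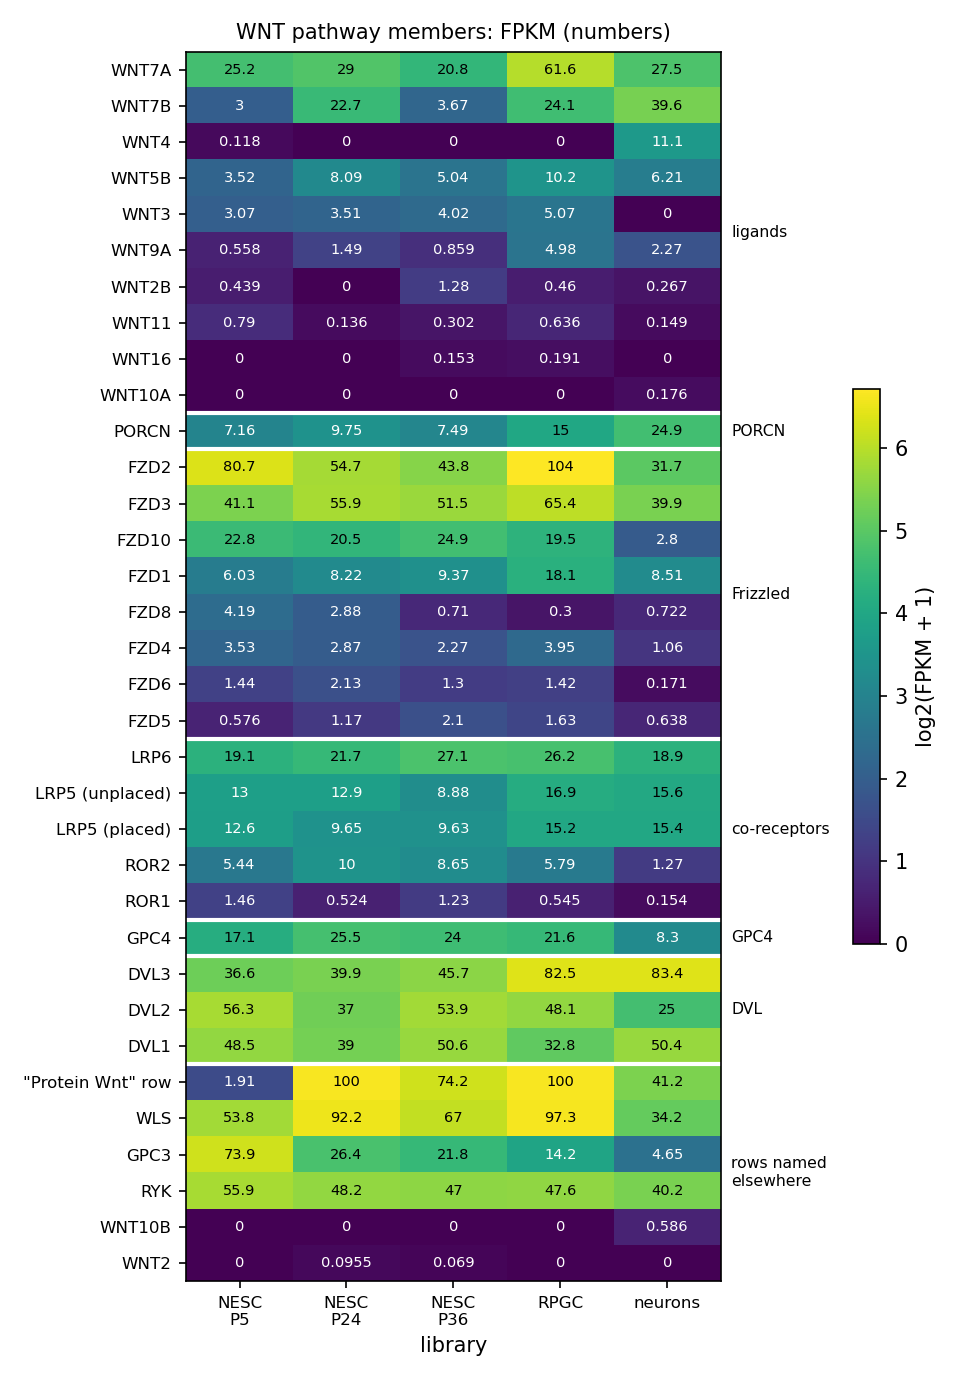
FPKM of the 28 member rows and the 6 related rows (vertical axis, grouped by role) in the 5 libraries (horizontal axis); numbers are FPKM and colour is log2(FPKM + 1). WNT7A, FZD2 and DVL3 are brightest in RPGC or neurons, WNT4 lights up in neurons, and FZD10 darkens there.

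WNT7B (ENSMMUG00000000180, chromosome 10, 89921979 to 89977966) stood at 3.00, 22.7 and 3.67 FPKM in NESC, 24.1 in RPGC and 39.6 in neurons. NESC passage 24 lay close to RPGC, far above the other NESC passages. It was the most variable member within NESC, with a ratio of highest to lowest passage of 7.57, against a median of 1.48 over 20 members and 1.41 over 11925 genes. Counting error does not cover that spread: the ratio of passage 24 to passage 36 was 6.41 (exact 95% interval 4.51 to 9.31). Neurons exceeded passage 36 by 10.6 times (7.54 to 15.2) and RPGC exceeded it by 6.63 times (4.69 to 9.60). With the NESC spread as error, neither difference from NESC passed by limma (RPGC 1.72 ± 1.09, adjusted p = 0.513, and neurons 2.42 ± 1.09, adjusted p = 0.139). Without passage 24 the neuron difference was 3.23 and passed (adjusted p = 0.0336), so 1 library decided that call.

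WNT4, a ligand known for axon guidance as well as for kidney and gonad formation, was a transcript of the neuron library. WNT4 (ENSMMUG00000006915, chromosome 1, 24706797 to 24731860) had 1 read at passage 5 (0.118 FPKM), was listed at 0 at passages 24 and 36 and in RPGC, and reached 11.1 FPKM, or 77 reads, in neurons. It rose in neurons against NESC by 3.55 ± 0.29 (limma, adjusted p = 0.00440) and also passed against RPGC, where it was listed at 0 (adjusted p = 0.0165). The second call was lost without passage 24 (adjusted p = 0.0758), which enters that contrast only through the estimate of spread. Because almost all other values are 0, the fitted size depends on the added 1 FPKM and is not a measured fold. The gene was tested only because neurons had it. Neuron over passage 5 was 96.9 times in normalized counts, but with 1 read in the denominator its interval runs from 16.9 to 3875.

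WNT3, known from mouse as a signal of the early primitive streak and later of the dorsal nervous system, went the other way. WNT3 (ENSMMUG00000020809, chromosome 16, 56009088 to 56061828) stood at 3.07, 3.51 and 4.02 FPKM in NESC and 5.07 in RPGC, from 15 to 25 reads each, and was listed at 0 in neurons. It fell in neurons against NESC (limma, adjusted p = 0.00939) and against RPGC (adjusted p = 0.0235). The latter call was lost without passage 24 (adjusted p = 0.0902). WNT5B, a relative of WNT5A that signals mostly outside beta-catenin, stood at 3.52, 8.09 and 5.04 FPKM in NESC, 10.2 in RPGC and 6.21 in neurons. Only its RPGC value left the NESC range, and the difference of 0.84 ± 0.47 did not pass (limma, adjusted p = 0.474).

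The remaining 5 ligands were near the limit of detection. WNT9A reached 18 reads, or 4.98 FPKM, in RPGC, against 0.558 to 1.49 FPKM in NESC and 2.27 in neurons, and was not tested. WNT2B, WNT11, WNT16 and WNT10A had at most 7 reads in any library. WNT2B shares its place in the table with other genes, 7 in all at the same locus, so its reads are uncertain. WNT11 was the 1 member whose FPKM per read differed between libraries by more than 1.5-fold. Summed over the 10 ligands, the level was 36.7, 64.9 and 36.1 FPKM in NESC, 107 in RPGC and 87.4 in neurons. WNT7A made up 68.7%, 44.7% and 57.6% of that sum in NESC, 57.5% in RPGC and 31.5% in neurons. WNT7B made up 45.4% of it in neurons and WNT4 12.7%.

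A row outside the rule would change this picture of the ligands. The row ENSMMUG00000009980 (chromosome 2, 80868267 to 81089067) is described in the table only as "Protein Wnt", lies between ERC2 and LRTM1, and is given no gene name here. It stood at 1.91 FPKM (8 reads) at passage 5, 100 and 74.2 FPKM at passages 24 and 36, 100 in RPGC and 41.2 in neurons. Passage 5 was the low library. The next lowest, the neurons, exceeded it by 23.1 times in normalized counts (11.4 to 54.6). Counting this row, it supplied 60.7% and 67.2% of the ligand sum at passages 24 and 36 and 4.94% at passage 5. The difference of passage 5 from the later passages was -4.91 ± 0.27 and did not pass by limma (adjusted p = 0.118), which has 1 residual degree of freedom there. It passed by edgeR on recovered reads and by limma after quantile normalization, with a lowest adjusted p of 0.0219. WNT10B had 4 reads in neurons and was listed at 0 elsewhere, and WNT2 never had more than 1 read.

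Of the proteins that make and release the ligands, PORCN, the enzyme that adds the lipid, rose in neurons. PORCN (ENSMMUG00000018895, chromosome X, 46360361 to 46371396) stood at 7.16, 9.75 and 7.49 FPKM in NESC, 15.0 in RPGC and 24.9 in neurons. RPGC and neurons both lay above every NESC library. The neuron difference was 1.52 ± 0.30 (limma, adjusted p = 0.0196), and that of RPGC was 0.82 ± 0.30 (adjusted p = 0.345). WLS, the carrier of lipid-modified ligands, stood at 53.8, 92.2 and 67.0 FPKM in NESC, 97.3 in RPGC and 34.2 in neurons. Neurons were below every other library, at 0.374 times the RPGC normalized count (0.329 to 0.424). By limma the WLS differences did not pass, with -0.997 ± 0.329 against NESC (adjusted p = 0.0680) and -1.48 ± 0.40 against RPGC (adjusted p = 0.0734). Against NESC it passed in 2 of 10 settings, with a lowest adjusted p of 0.0433, and against RPGC in 1 of 10, with a lowest adjusted p of 0.0418.

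**Figure D2:**
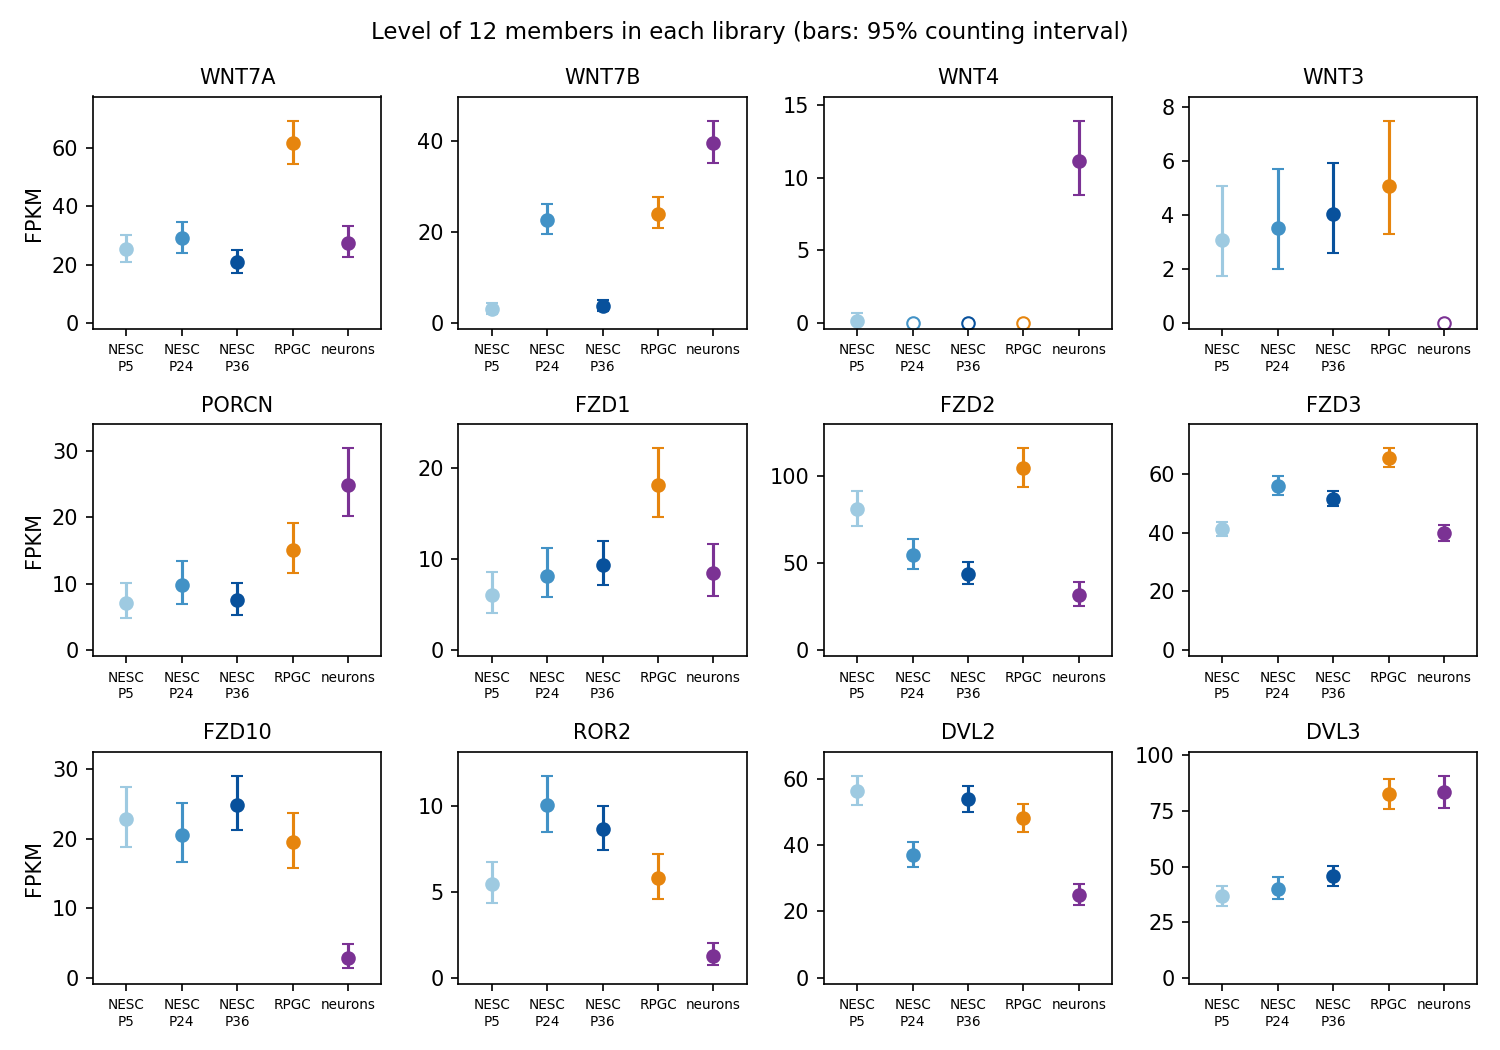
FPKM (vertical axis, linear, from 0) of 12 members in each of the 5 libraries (horizontal axis); points are single libraries, bars are exact 95% Poisson intervals of the reads, and open points are values listed at 0. PORCN, WNT7B and DVL3 stand above every NESC library in RPGC and in neurons, while FZD10 falls from 19.5 FPKM in RPGC to 2.80 in neurons.

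Among the Frizzled receptors, FZD2 and FZD3 were the most abundant. FZD2 (ENSMMUG00000011038, chromosome 16, 54649693 to 54651082), a receptor for both beta-catenin and other WNT signals, stood at 80.7, 54.7 and 43.8 FPKM in NESC, 104 in RPGC and 31.7 in neurons. RPGC was its highest library and neurons its lowest. Neurons against RPGC gave -1.69 ± 0.45 (limma, adjusted p = 0.0696), which passed only without passage 5 (adjusted p = 0.0377). Against passage 36 alone, the RPGC ratio of normalized counts was 2.39 (1.99 to 2.87) and the neuron ratio 0.707 (0.543 to 0.914). Passage 5 against the later passages gave 0.71 ± 0.22 (unadjusted p = 0.0397, adjusted p = 0.470 by limma). FZD3 (ENSMMUG00000007486, chromosome 8, 28641332 to 28714116), a planar polarity receptor needed for axon tracts in mouse, stood at 41.1, 55.9 and 51.5 FPKM in NESC, 65.4 in RPGC and 39.9 in neurons. That was a range of under 2-fold over all libraries, and none of its differences passed. FZD3 was 46.7% of the Frizzled sum in neurons and 25.6% to 37.9% in NESC.

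FZD10, a receptor known from dorsal neural tube and a mediator of beta-catenin signalling, fell in neurons against NESC and against RPGC. FZD10 (ENSMMUG00000006912, chromosome 11, 131430698 to 131432411) stood at 22.8, 20.5 and 24.9 FPKM in NESC, 19.5 in RPGC and 2.80 (12 reads) in neurons. The 3 passages were close together, RPGC lay just below them, and neurons stood apart. The difference from NESC was -2.64 ± 0.26 (limma, adjusted p = 0.00512) and that from RPGC was -2.43 ± 0.32 (adjusted p = 0.0200, or 0.0767 without passage 24). The list of roof plate and dorsal midline markers, 7 of whose 9 genes were in the table, summed to 23.7, 19.04 and 26.6 FPKM in NESC, 3.19 in RPGC and 7.72 in neurons. Of its 7 rows, 5 had under 20 reads in every library. In RPGC, where this marker sum was lowest, FZD10 stood at 0.857 times its NESC mean. The part of dorsal cells in the FZD10 level was not tested.

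FZD1, a beta-catenin receptor, stood at 6.03, 8.22 and 9.37 FPKM in NESC, 18.1 in RPGC and 8.51 in neurons. RPGC alone left the NESC range, and its difference from the NESC mean was 1.13 ± 0.34 (limma, adjusted p = 0.309). FZD4, also the receptor for norrin in the retina, stood at 3.53, 2.87 and 2.27 FPKM in NESC, 3.95 in RPGC and 1.06 in neurons, where it did not pass (-0.91 ± 0.34, adjusted p = 0.0933). FZD6, a planar polarity receptor that sets hair direction in mouse, stood at 1.44, 2.13 and 1.30 FPKM in NESC, 1.42 in RPGC and 0.171 (3 reads) in neurons. It fell in neurons against NESC by 1.15 ± 0.34 (limma, adjusted p = 0.0499), a call that held in 4 of 10 settings and was lost without passage 24 (adjusted p = 0.148) or passage 36 (adjusted p = 0.0882). FZD8 and FZD5 had at most 13 and 10 reads and were not tested. FZD8 stood at 4.19, 2.88 and 0.710 FPKM in NESC, 0.300 in RPGC and 0.722 in neurons.

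**Figure D3:**
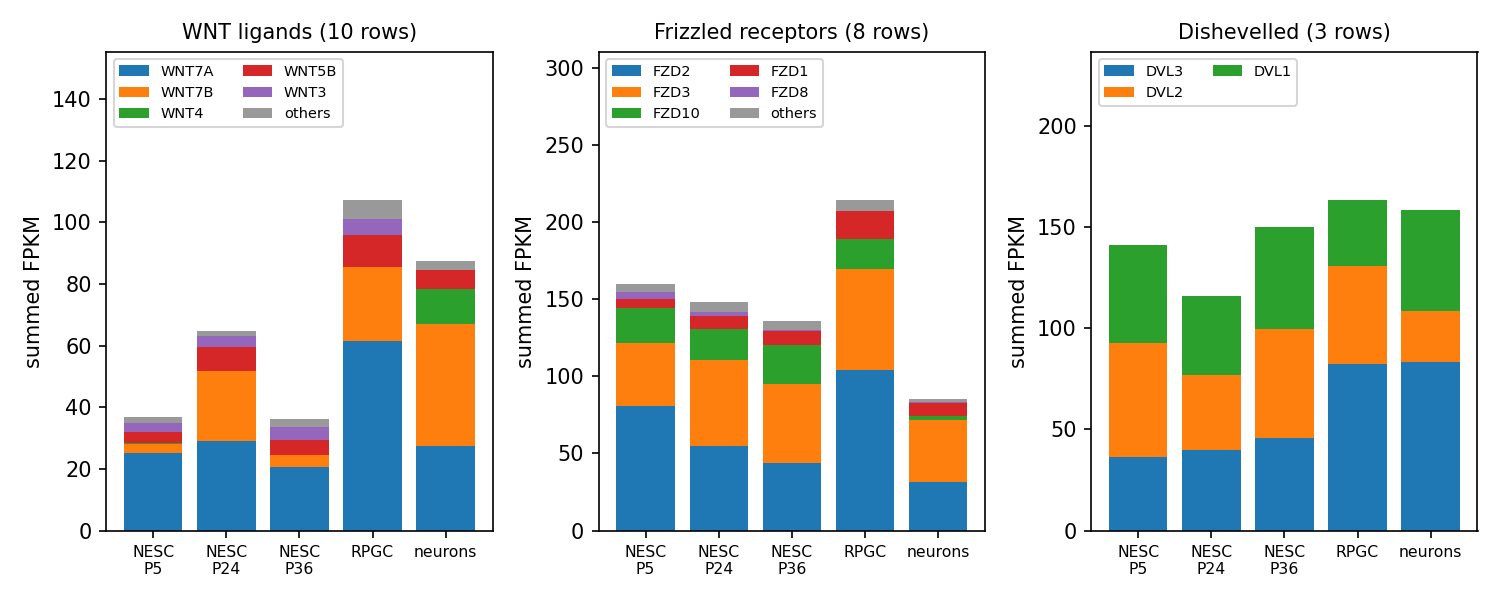
Summed FPKM (vertical axis, linear, from 0) of the 10 WNT ligand rows, the 8 Frizzled rows and the 3 Dishevelled rows in each library (horizontal axis); colours are the shares of single genes. The Frizzled sum is highest in RPGC, at 214 FPKM, and lowest in neurons, at 85.5 FPKM, while the Dishevelled sum stays between 116 and 163 FPKM.

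Summed over the 8 rows, Frizzled transcript stood at 160, 148 and 136 FPKM in NESC, 214 in RPGC and 85.5 in neurons. RPGC lay above and neurons below all 3 passages. FZD2 contributed 48.6% of the RPGC sum. FZD10 contributed 13.8% to 18.3% of the sum in NESC, 9.08% in RPGC and 3.27% in neurons. With 1 library in each of these groups the sums carry no test.

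The LRP co-receptors of the beta-catenin branch showed no difference past the test. LRP6 stood at 19.1, 21.7 and 27.1 FPKM in NESC, 26.2 in RPGC and 18.9 in neurons, a range of under 2-fold. The LRP5 row on chromosome 14 (ENSMMUG00000031237, 6294521 to 6368027) stood at 12.6, 9.65 and 9.63 FPKM in NESC, 15.2 in RPGC and 15.4 in neurons. The LRP5 row on the unplaced scaffold (ENSMMUG00000009185) stood at 13.0, 12.9 and 8.88 FPKM in NESC, 16.9 in RPGC and 15.6 in neurons. Both LRP5 rows were above every NESC library in RPGC and in neurons. Their log2 differences from the NESC mean were 0.42 to 0.53 and did not pass by limma. Since both rows carry 1 gene's name, how the authors' counting divided reads between them is uncertain. The 3 LRP rows summed to 44.7, 44.2 and 45.6 FPKM in NESC, 58.3 in RPGC and 49.9 in neurons.

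The ROR receptors, which bind WNT5-type ligands and act outside beta-catenin, were low in neurons. ROR2 (ENSMMUG00000020009, chromosome 15, 103538857 to 103763571) stood at 5.44, 10.0 and 8.65 FPKM in NESC, 5.79 in RPGC and 1.27 in neurons. It fell in neurons against NESC by 1.96 ± 0.42 (limma, adjusted p = 0.0231), and the call was lost without passage 24 (adjusted p = 0.0740) or passage 36 (adjusted p = 0.0513). ROR1 stood at 1.46, 0.524 and 1.23 FPKM in NESC, 0.545 in RPGC and 0.154 in neurons. It had 2 reads in neurons, 8 in RPGC and at most 23 in any library, and no ROR1 difference passed. Neuron over RPGC was 0.285 times in normalized counts for ROR1, with an interval of 0.0295 to 1.43 that includes 1. RYK, a receptor with an inactive kinase domain that repels axons in response to WNT5A in mouse, stood at 55.9, 48.2 and 47.0 FPKM in NESC, 47.6 in RPGC and 40.2 in neurons. It was more abundant than the ROR sum in every library and showed no difference past the test.

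Both glypicans, which carry heparan sulphate chains that bind WNT ligands, fell in neurons. GPC4 (ENSMMUG00000003456, chromosome X, 131537774 to 131655457) stood at 17.1, 25.5 and 24.0 FPKM in NESC, 21.6 in RPGC and 8.30 in neurons. Neurons were the low library and RPGC lay within the NESC range. GPC4 fell in neurons against NESC by 1.30 ± 0.32 (limma, adjusted p = 0.0322), which was lost without passage 24 (adjusted p = 0.0942) or passage 36 (adjusted p = 0.0718). Its neighbour GPC3, on chromosome X from 131772264 to 132226840, stood at 73.9, 26.4 and 21.8 FPKM in NESC, 14.2 in RPGC and 4.65 in neurons. It fell in neurons against NESC by 2.67 ± 0.72 (limma, adjusted p = 0.0413), a call that held in 7 of 10 settings. GPC3 at passage 5 was 3.51 times its passage 36 normalized count (3.07 to 4.02), although the difference from both later passages did not pass (1.58 ± 0.27, adjusted p = 0.304). The mesenchyme marker sum given above was also highest at passage 5, and its part in the GPC3 level was not tested.

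The Dishevelled genes, whose products relay every Frizzled signal, had a similar sum in all libraries, of which DVL3 took a larger share in RPGC and neurons than in NESC. DVL3 (ENSMMUG00000006553, chromosome 2, 102499378 to 102513543) stood at 36.6, 39.9 and 45.7 FPKM in NESC, 82.5 in RPGC and 83.4 in neurons. RPGC and neurons lay together, at about the same level and above every NESC library. DVL3 rose in neurons by 1.02 ± 0.20 (limma, adjusted p = 0.0192), a call lost without passage 24 (adjusted p = 0.0720). The RPGC difference was of like size, 1.01 ± 0.20, but did not pass (adjusted p = 0.292), and neurons against RPGC gave 0.01 ± 0.25. At like size and equal standard error, the neuron and RPGC calls differ through the adjustment over all genes, not through the DVL3 values. DVL3 made up 25.9% to 34.4% of the DVL sum in NESC, 50.5% in RPGC and 52.5% in neurons.

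DVL2 (ENSMMUG00000010542, chromosome 16, 6954759 to 6963999) stood at 56.3, 37.0 and 53.9 FPKM in NESC, 48.1 in RPGC and 25.02 in neurons. Neurons were its lowest library. The difference from NESC, -0.92 ± 0.30, did not pass by limma (adjusted p = 0.0650), but passed by edgeR (adjusted p = 0.0496) and after quantile normalization (adjusted p = 0.0381). DVL1 stood at 48.5, 39.0 and 50.6 FPKM in NESC, 32.8 in RPGC and 50.4 in neurons, from at most 93 reads in any library. It was lowest in RPGC, with a difference from the NESC mean of -0.47 ± 0.23 (limma, adjusted p = 0.423), and no DVL1 difference passed. The 3 genes together stood at 141, 116 and 150 FPKM in NESC, 163 in RPGC and 159 in neurons.

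RPGC were compared with NESC to follow the removal of CHIR99021. By limma 0 of 12178 genes passed in either direction, and 0 by edgeR, so 0% of all genes and 0 of the 21 members were called. At an unadjusted p under 0.05, 1709 genes differed, and 4 members were higher (WNT7A, PORCN, FZD1 and DVL3) against 8.77% of all genes, and 0 lower against 5.26%. WNT7A was the 1 member at least 2-fold above every NESC library, which 4.06% of all genes were, and 0 members were 2-fold below, against 1.47%. Without the 2-fold margin, 12 of 21 members lay above every NESC library (39.1% of all genes) and DVL1 and FZD10 lay below (24.6%). The 12 comprised WNT3, WNT5B, WNT7A, WNT7B, PORCN, FZD1 to FZD4, both LRP5 rows and DVL3. Exact 95% counting intervals in RPGC overlapped those of the highest NESC passage for WNT3, WNT5B, WNT7B, PORCN, FZD4 and both LRP5 rows. The median log2 fold change over all genes was 0.11, and other scalings moved it by up to -0.12, so small positive differences are read against that shift.

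**Figure D4:**
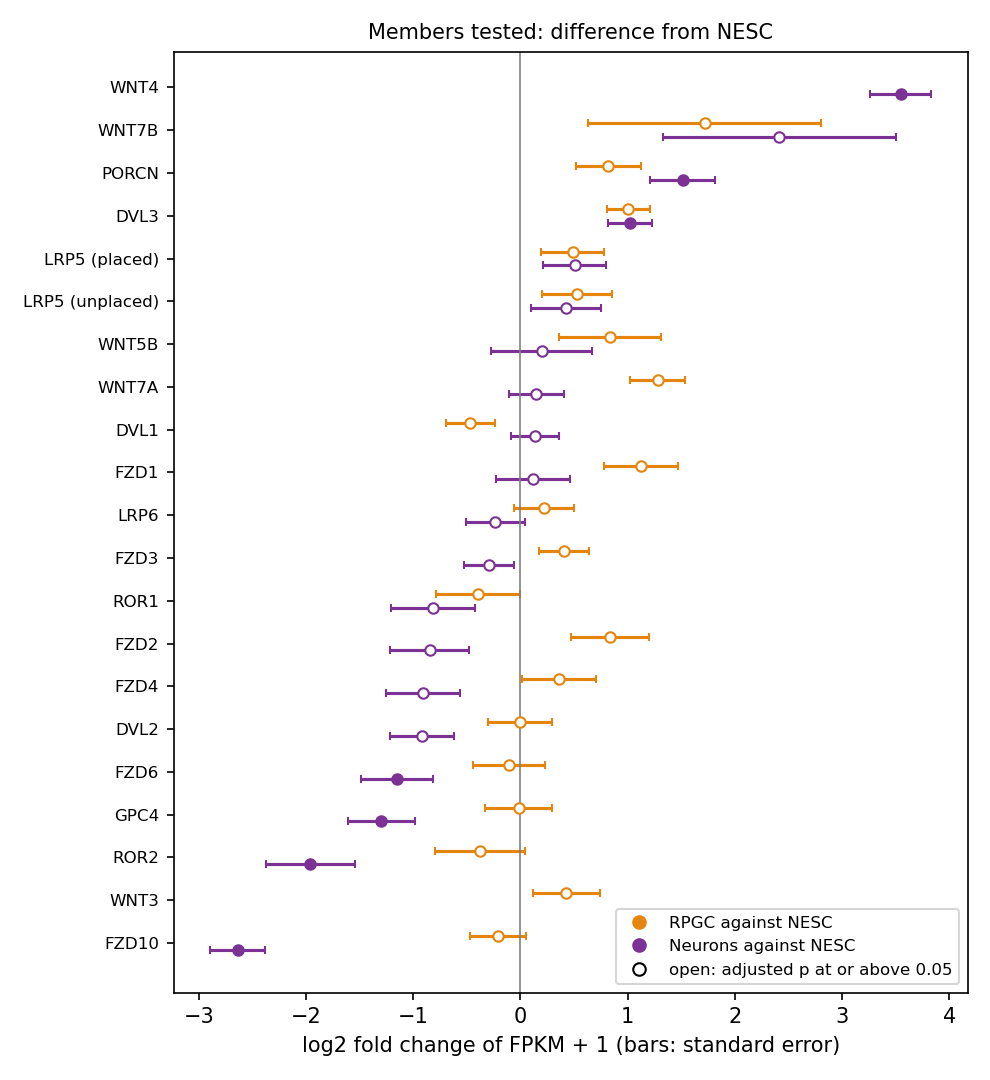
Log2 fold change of FPKM + 1 (horizontal axis) of the 21 tested members (vertical axis) in RPGC and in neurons against the 3 NESC libraries; bars are standard errors from limma, filled points passed an adjusted p of 0.05 and open points did not. The filled points are WNT4, PORCN and DVL3 on the right and FZD6, GPC4, ROR2 and FZD10 on the left, all in neurons. WNT3 in neurons and WNT4 in RPGC are not drawn, since they are listed at 0 there.

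In neurons against NESC, 3 members rose, namely WNT4, PORCN and DVL3, against 19.2% of all genes. The 5 that fell were FZD10, WNT3, ROR2, GPC4 and FZD6, against 20.5% of all genes. These shares are near the background, and the count of rising members includes WNT4, which was tested only through the neurons. FZD10, WNT3, WNT4 and PORCN passed in all 10 settings tried. Without passage 24, DVL3, GPC4, ROR2 and FZD6 were lost and WNT7B was gained. By size alone, WNT4 and PORCN were at least 2-fold above every NESC library (17.6% of all genes), and FZD4, FZD6, FZD10, ROR1, ROR2, GPC4 and WNT3 at least 2-fold below (17.5%). Neurons lay above every NESC library for 6 members (40.8% of all genes) and below for 11 (42.5%).

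In neurons against RPGC, WNT4 rose, against 6.18% of all genes, and FZD10 and WNT3 fell, against 8.89%. WNT4 met the filter only through the neurons, so counting it as higher here is no support beside the shares of all genes. All calls of this comparison, over all genes as well as members, were lost without passage 24, where 3422 genes had an unadjusted p under 0.05. Neurons were at least 2-fold lower than RPGC for 10 members, against 21.2% of all genes, and at least 2-fold higher for WNT4, against 16.5%. The 10 were WNT3, WNT7A, FZD1, FZD2, FZD4, FZD6, FZD10, ROR1, ROR2 and GPC4. RPGC and neurons were both above every NESC library for DVL3, PORCN, WNT7B and both LRP5 rows, against 25% of all genes, and both below for FZD10, against 18.6%. These comparisons share libraries and are not independent of each other.

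Between passage 5 and passages 24 and 36, limma called 0 of 12178 genes and 0 members. Unadjusted, 1225 genes had p under 0.05, of which FZD2 was the 1 member higher at passage 5, against 5.72% of all genes, with 0 members lower, against 4.34%. By edgeR 32 genes passed, among them 0 members.

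Other genes of the pathway were taken from 6 lists, whose counts in neurons against NESC stand beside the 19.2% of all tested genes that rose and the 20.5% that fell. In these counts, CAMK2A and CAMK2B of the calcium branch met the filter only through the neurons, and 1 antagonist and 1 further calcium row met it only through another library.

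Of the 5 receptor turnover genes, which set how many Frizzled and LRP proteins stay at the surface, 3 were tested and these 3 fell in neurons, against 20.5% of all genes. Their median log2 fold change was -1.41, against -0.02 over all genes. LGR5, a receptor for R-spondins, stood at 53.6, 54.2 and 16.2 FPKM in NESC, 20.2 in RPGC and 1.78 in neurons (limma, adjusted p = 0.0200). LGR4, its relative, stood at 74.97, 75.6 and 75.9 FPKM in NESC, 139 in RPGC and 49.3 in neurons (adjusted p = 0.0370). ZNRF3, a ligase that removes Frizzled receptors, stood at 11.1, 11.8 and 15.6 FPKM in NESC, 6.20 in RPGC and 4.16 in neurons (adjusted p = 0.0285).

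In the planar polarity list 6 of 15 genes rose in neurons and 2 fell, against 19.2% and 20.5% of all genes, with a median of 0.25. Among its CELSR cadherins, CELSR3, needed for axon tracts in mouse, stood at 3.09, 0.847 and 0.753 FPKM in NESC, 4.74 in RPGC and 33.9 in neurons, and rose (limma, adjusted p = 0.0104). CELSR1, known from neural progenitors in mouse, stood at 8.47, 18.9 and 19.3 FPKM in NESC, 18.8 in RPGC and 1.69 in neurons, and fell (adjusted p = 0.0226). PRICKLE1 and PRICKLE2, cytoplasmic partners of that system, rose by 2.06 ± 0.31 (adjusted p = 0.0105) and 2.75 ± 0.34 (adjusted p = 0.00679). In the calcium branch 6 of 12 tested rows rose and 2 fell, against the same shares of all genes. The 6 include CAMK2A and CAMK2B, which were tested only because neurons had them. CAMK2B, a calcium-dependent kinase abundant in neurons, stood at 1.31, 0 and 0.134 FPKM in NESC, 0.298 in RPGC and 36.9 in neurons (adjusted p = 0.00646). The neuron marker sum was also highest in neurons, at 5187 FPKM against at most 921 elsewhere, and its part in these values was not tested.

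Of the destruction complex and its effectors, 7 of 20 rose in neurons and 3 fell, against 19.2% and 20.5% of all genes, with a median of 0.07. APC2, the neuronal relative of the scaffold APC, stood at 5.18, 4.83 and 7.63 FPKM in NESC, 23.6 in RPGC and 121 in neurons, and rose by 4.17 ± 0.33 (limma, adjusted p = 0.00440). LEF1, a DNA-binding partner of beta-catenin, fell by 4.13 ± 0.40 (adjusted p = 0.00505), from 203 to 386 reads in the NESC libraries to 1 read in neurons, and had 2 reads in RPGC. Of the secreted antagonists, 1 of 7 tested rose and 3 fell, against the same shares, with a median of -1.57. The 1 that rose was DKK3, a divergent Dickkopf protein, at 4.12, 9.86 and 9.73 FPKM in NESC, 28.2 in RPGC and 209 in neurons (adjusted p = 0.00582). Those that fell included SFRP2, a secreted Frizzled-related protein, by 5.11 ± 1.33 (adjusted p = 0.0374), with RPGC highest at 2191 FPKM and neurons lowest at 3.57. APCDD1, a membrane-bound inhibitor of WNT signals, fell by 4.02 ± 0.32 (adjusted p = 0.00440), with neurons lowest at 4.34 FPKM.

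Of the feedback and target genes, 0 of 6 tested rose and 2 fell, against 19.2% and 20.5% of all genes, with a median of -0.88. These were CCND1, a cyclin of the G1 phase, at 161, 361 and 204 FPKM in NESC, 153 in RPGC and 37.6 in neurons (limma, adjusted p = 0.0158), and TNFRSF19 (adjusted p = 0.0464). In RPGC against NESC 0 genes of any list passed by limma. The list medians there were 0.30 for the destruction complex, -0.81 for receptor turnover, 1.79 for antagonists, 0.64 for planar polarity, 0.25 for the calcium branch and -0.52 for targets, against 0.11 over all genes.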

How the data were processed

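RNA was measured in 5 libraries. Per the labels' protocols, mRNA was fragmented and random primers started the cDNA for Illumina TruSeq libraries. TopHat2 2.0.9 is named in the submitters' processing notes. Build, annotation and counting program: not given in the sources used here. Coordinates are those of the table. Per the file headers, the deposited expression values are FPKM (the table's title speaks of RPKM, which the plan also allowed for). The deposited normalized counts are a signal that the authors scaled per library. Dividing by 1 factor per library gave whole reads (within 0.1) for 100% of values in 4 libraries and 99.9941% at passage 36. All value columns were matched to a sample.

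Genes were tested with limma 3.58.1 (trend, two-sided) in R 4.3.3 on log2(FPKM + 1). This used the 12178 genes with at least 1 FPKM and at least 20 reads in 1 library or more, and Benjamini-Hochberg adjustment over all of them, with a threshold of 0.05. The model of 3 groups has 2 residual degrees of freedom, all from NESC. The passage comparison used 4 groups and has 1. RPGC and neurons, with 1 library each, were taken to vary as NESC do. The fitting code was tested on simulated data. Intervals of 95% are exact (Poisson or binomial) and cover counting error only. The count test, edgeR 4.0.16, ran on the recovered reads as an alternative.

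Members and lists were chosen with earlier results of these data known. By rule, every member is named with its values at 5 FPKM or more in a library, or with 20 reads and a 2-fold departure from the NESC range, and the rest by range. Of each pathway list, up to 4 tested genes are named, taken from those of largest absolute log2 fold change. Gene names of 5 of the 6 rows outside the rule came from gene ID and RefSeq peptide tables, and the other row has no gene name. Those tables are of a later assembly and gave no coordinates.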

Additional observations from a re-analysis of the deposited data

How the results depend on the processing

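Besides the reported fit there were 9 settings: a pseudocount of 0.1, the FPKM filter alone, no filter, median-of-ratios scaling, quantile normalization, edgeR on recovered reads, and leaving out each NESC passage. No paired analysis was possible because RPGC and neurons have 1 library each and the labels give no replicate numbers. In RPGC against NESC, 106 genes passed with the FPKM filter alone and 296 with no filter, where 0 had passed, and 0 members in each. In neurons against NESC, members past the test numbered 8, against 5 with the FPKM filter alone and 5 to 8 with a passage left out. All genes past it numbered 4841, against 2164 to 4478 with a passage left out, the lowest without passage 24. In neurons against RPGC, 1836 genes passed, 1101 with the FPKM filter alone and 0 to 1863 with a passage left out, the 0 being without passage 24. Members numbered 3, and 0 to 4 with a passage left out. There the share of higher calls was 41.0%, and moved to 29.5% with a pseudocount of 0.1, to 55.3% with no filter and to 51.3% with the FPKM filter alone. Over all genes the median difference there was -0.10 on the log2 scale, and 0.037 under median-of-ratios scaling. For passage 5, 22 genes passed after quantile normalization and 32 by edgeR. The cause of these differences was not tested.

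The unnamed "Protein Wnt" row ranged from -1.05 to 1.51 in neurons against NESC over the 10 settings and passed in 1 of them (adjusted p = 0.0496). With a passage left out, RPGC against NESC ranged from -0.19 to 0.088 for GPC4, from -0.19 to 0.11 for DVL2 and from -0.20 to 0.027 for FZD6. Neurons against NESC ranged from -0.040 to 0.46 for WNT5B and from -0.040 to 0.24 for FZD1. FZD1 was -0.018 there after quantile normalization. The unplaced LRP5 row was 0.038 in neurons against RPGC under median-of-ratios scaling. By edgeR, passage 5 gave -0.18 for FZD10 and -0.086 for WNT7A. Genes under 20 reads, 7 of the members, could not be judged at this depth.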
